A study of Mus musculus with 33 samples.

Results

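The AP-1 immediate early factors examined here were Fos, Fosb, Fosl2, Jun, Junb, Jund and Atf3, taken by gene symbol from a gene-level RNA-seq table of mouse frontal cortex. All 7 were among the 21565 genes listed. The study asked how sleep loss changes cortical gene expression and whether the transcription factor MEF2C is needed for that change. All mice were adult C57BL/6J males. Wild-type (WT) mice were allowed to sleep freely (control sleep, CS, n = 6), were kept awake for 6 hr on a slowly moving treadmill (sleep deprived, SD, n = 7), or were deprived and then given 2 hr of recovery sleep (RS, n = 7). Mice with loxP sites around an exon of both Mef2c copies (Mef2c f/f) were studied in CS (n = 4) and SD (n = 3). Mice with the same floxed alleles and a Camk2a-Cre transgene (Mef2c-cKO), which deletes that exon in excitatory forebrain neurons while other cells keep it, were studied in CS (n = 3) and SD (n = 3). Some of the Mef2c-cKO mice also carried a recombined allele from the germline, so the loss was not limited to neurons in those animals. All tissue was collected at the same time of day.

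AP-1 is a dimer of basic leucine zipper (bZIP) proteins. FOS family proteins (FOS, FOSB, FOSL2) pair with JUN family proteins (JUN, JUNB, JUND), whereas JUN proteins can also pair among themselves or with ATF3. Most of these genes are immediate early genes: in cortical neurons, calcium entry and the MAP kinase cascades switch them on within minutes through the transcription factors SRF and CREB, with no need for new protein. Their messages are short-lived, and their proteins bind regulatory DNA of later-responding genes. Jund and Fosl2 are usually the steadier members, and Atf3 is best known as a gene of cell stress and injury.

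The promoters are shown for matches to elements of the kind through which such genes answer neuronal activity. No match was tied to a response in these data. Each stretch is the 130 bases just before the RefSeq transcription start on GRCm38.p6, 5′ to 3′ on the strand of the gene. Capitals mark TGACG (the core of a CREB site, on either strand), TGACATCA (the AP-1-like element of Jun) and the MEF2-type A/T-rich element, whose matches were searched by its consensus.
Fos (chr12:85473760-85473889, plus strand): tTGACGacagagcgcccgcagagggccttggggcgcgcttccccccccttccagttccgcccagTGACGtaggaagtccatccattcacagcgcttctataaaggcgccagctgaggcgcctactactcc
Fosb (chr7:19310046-19310175, minus strand): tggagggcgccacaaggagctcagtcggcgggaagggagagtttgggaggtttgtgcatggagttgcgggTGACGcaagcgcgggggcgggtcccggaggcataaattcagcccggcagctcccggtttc
Jun (chr4:95052223-95052352, minus strand): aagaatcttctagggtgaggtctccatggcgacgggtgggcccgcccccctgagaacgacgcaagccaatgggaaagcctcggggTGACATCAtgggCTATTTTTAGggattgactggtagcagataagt
Junb (chr8:84978749-84978878, minus strand): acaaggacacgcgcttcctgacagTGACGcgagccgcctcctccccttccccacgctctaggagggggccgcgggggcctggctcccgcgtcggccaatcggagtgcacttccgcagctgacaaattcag
Atf3 (chr1:191183334-191183463, minus strand): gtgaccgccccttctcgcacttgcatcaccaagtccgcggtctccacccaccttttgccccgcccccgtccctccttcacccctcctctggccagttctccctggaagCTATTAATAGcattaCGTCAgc
The first base of TGACG lay at -129 and -66 in Fos, at -60 in Fosb and at -106 in Junb, counted back from the start, and its reverse complement began at -7 in Atf3. A MEF2-type element began at -33 in Jun, next to the TGACATCA element at -45, and at -22 in Atf3. Among all 32851 RefSeq promoter windows, the 250 bases before the start held TGACG in 17.8%, TGACATCA in 2.93% and a MEF2-type element in 2.92%. The search also covered the full CREB site TGACGTCA (1.55% of all windows), the AP-1 site TGACTCA (4.46%), the CArG box bound by SRF (1.47%) and the TATA box, as the letters TATAAA (12.4%). Of these 4, only the TATA box matched, in Fos at -33. The search ended 250 bases before the start, so a missing match does not cover sites farther upstream. A TGACGTCA match would also count as TGACG. None of the searched letters occurred in the windows of Fosl2 and Jund, but the RefSeq start of Jund lay 1210 bases from the start of the gene model used below, and that of Fosl2 lay 671 bases from it. The Atf3 start shown lay 34706 bases inside the gene, which has a more distant first exon.

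Values are CPM (reads of a gene relative to all reads of its library) rescaled so that the typical gene has the same level in each library. Total reads ran from 44395583 to 249046089 in the 20 WT libraries and from 18935045 to 94678945 in the other genotypes. The CPM of the listed genes summed to 925580 to 985958 in the WT libraries and to 1000000 in each library of the other genotypes. This difference between WT and the others cannot be told apart from genotype. The share of reads on GC-rich genes moved with the groups: Spearman's rho between a gene's GC content and its deviation in a library ran from -0.74 to -0.10 in WT CS, from 0.03 to 0.77 in WT SD and from -0.27 to 0.68 in WT RS. It ran from -0.44 to 0.41 in Mef2c f/f and from -0.14 to 0.21 in Mef2c-cKO. This touches the members directly, since Jund (67.1% GC) and Junb (62.6% GC) lay at percentiles 99.8 and 98.6 of annotated genes, against 51.9% to 56.0% GC in the other members, so the members' WT fold changes against CS are given with and without a correction for GC content and length. Of 9 lists of 5 cell type markers, none held a gene at 0 in a group, and all genes reached CPM of 1 in every library except 3 meningeal genes in WT CS, 2 in WT RS and 2 red blood cell genes in Mef2c-cKO CS. Meningeal fibroblast markers summed to 8.81 to 38.7 CPM in WT CS and 44.4 to 72.1 in WT SD, and red blood cell markers to 28.2 to 118 and 97.8 to 285. A pair of Mef2c-cKO libraries stood apart. CS replicate 8 held the glial filament gene Gfap at 1366 CPM and SD replicate 6 held it at 364 CPM, against 21.04 to 142 in the other 31 libraries. At gene level Mef2c itself was not lower in Mef2c-cKO (1429 ± 414 CPM in CS, SD, n = 3) than in Mef2c f/f (1145 ± 67.2, n = 4); counts over the whole gene do not check for loss of a single exon.

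**Figure D1:**
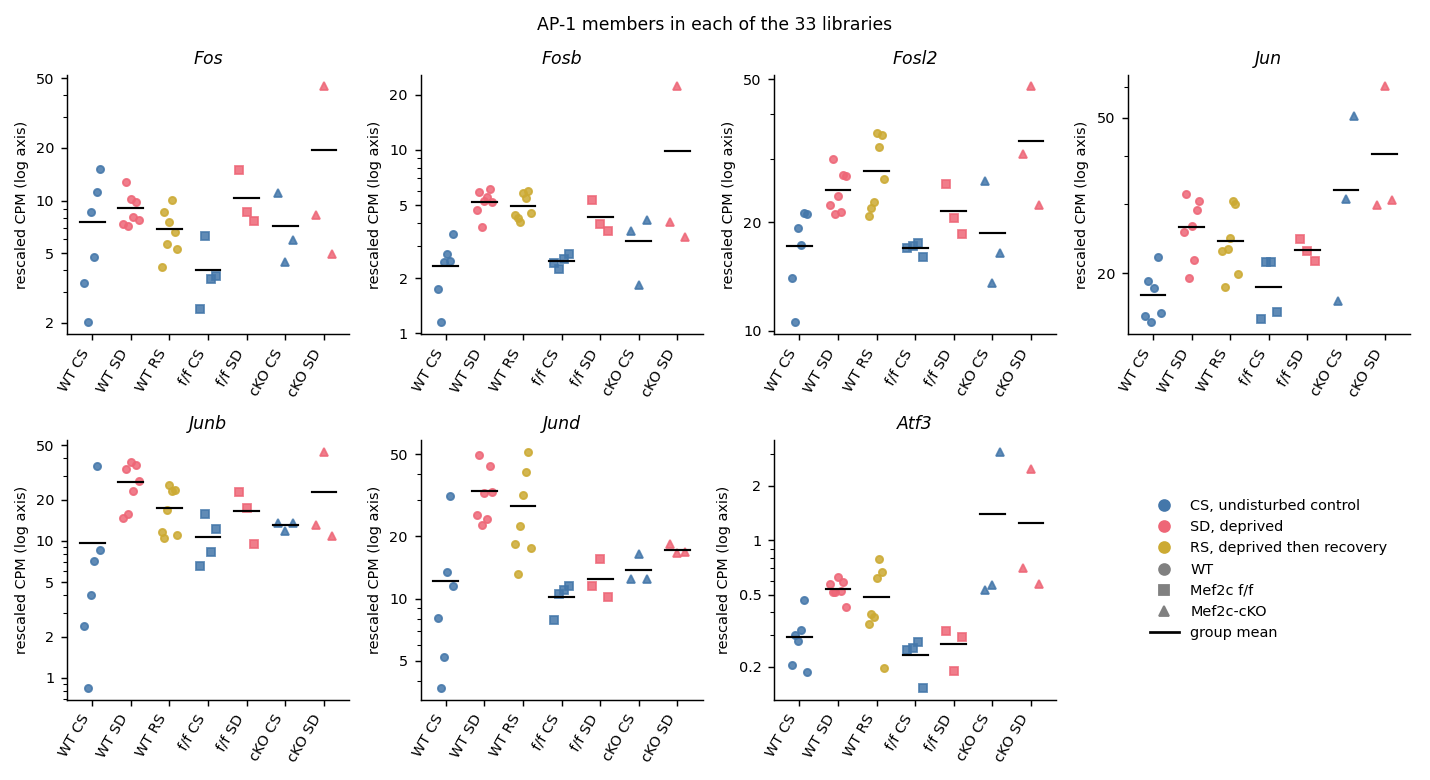
Rescaled CPM (log axis) of each AP-1 member in each library, by genotype and sleep group; points are libraries and bars are group means. All 7 WT SD libraries lie above all 6 WT CS libraries for Fosb, and Mef2c-cKO SD replicate 6 is the highest library for Fos, Fosb, Fosl2, Jun and Junb.

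In WT cortex, most of the tested AP-1 members were higher after 6 hr of sleep deprivation. Of 6 members with enough reads for the test across all genes, 5 were called higher and none lower, whereas 24.6% of the 12913 genes tested were called higher, 20.5% lower and 45.1% in either direction. The JUN family genes Junb (4.35-fold) and Jund (3.17-fold) showed the steepest change, Fosb doubled (2.08-fold) and Jun (1.47-fold) and Fosl2 (1.45-fold) rose less. Fos itself, the best known member, did not pass. The median log2 fold change was 0.81 over the 6 members and 0.04 over all genes tested. Here and below a call needed an adjusted p from limma no higher than 0.05 together with a log2 fold change of 0.3 or more in size. Only 1 of the 6 members, Fosb, had groups that did not overlap (15.1% of all genes tested). With GC content and length corrected, 4 of 6 members were called higher (10.2% of genes tested). Junb then stood at a log2 fold change of 1.44 and Jund at 0.84, and Jun was not called. The GC dependence of a library was below 0 throughout WT CS and above 0 throughout WT SD. Over the 20 WT libraries the members followed it at r of 0.48 (Fos) to 0.89 (Fosb). It cannot be fully told apart from the sleep state.

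Among the FOS family, Fos (chr12:85473890-85477273, GRCm38, plus strand) encodes the founding member and is the usual marker of recently active neurons. Fos ran from 2.01 to 15.3 CPM in WT CS (median 6.72) and from 7.21 to 12.8 in WT SD (median 8.09). The CS libraries spanned the whole SD range, so the groups overlapped, and it was the spread in CS (7.54 ± 5.09, SD, n = 6) rather than in SD (9.02 ± 2.04, n = 7) that was wide. The log2 fold change was 0.49, with an interval of -0.25 to 1.23 (adjusted p = 0.238), and 0.31 with GC content and length corrected (adjusted p = 0.480). A rise as large as that of Fosb is inside this interval.

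Fosb (chr7:19302696-19310051, minus strand) encodes FOSB and, by splicing, the truncated and long-lived ΔFOSB; a count over the whole gene does not separate them. Fosb ran from 1.15 to 3.49 CPM in WT CS (median 2.45) and from 3.83 to 6.15 in WT SD (median 5.25). All 7 SD libraries were above all 6 CS libraries. The log2 fold change was 1.06 ± 0.18 (SE, adjusted p = 0.000956) and stayed called after correction for GC content and length (0.71 ± 0.11, adjusted p = 0.000695). Fosl2 (chr5:32135801-32157842, plus strand) encodes FRA-2, a slower FOS protein that lacks the strong activation domain of FOS. Fosl2 ran from 10.6 to 21.2 CPM in CS (median 18.3) and from 21.2 to 30.0 in SD (median 23.7), and 6 of 7 SD libraries were above the highest CS library. Its log2 fold change was 0.53 ± 0.15 (adjusted p = 0.0125), and 0.41 ± 0.14 after the correction (adjusted p = 0.0405).

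Among the JUN family, Jun (chr4:95049034-95052222, minus strand) encodes the strongest activator of its family, which the JNK kinases phosphorylate. Jun ran from 14.99 to 21.96 CPM in CS (median 17.1) and from 19.5 to 31.9 in SD (median 26.4), with 5 of 7 SD libraries above the highest CS library. The log2 fold change of 0.56 ± 0.13 was called (adjusted p = 0.00454), but with the GC and length correction it was 0.22 ± 0.14 and was not called (adjusted p = 0.246). Whether the GC shift between libraries accounts for the call was not tested.

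Junb (chr8:84974484-84978718, minus strand) encodes a weaker activator that competes with JUN for FOS partners. Junb ran from 0.85 to 35.2 CPM in CS (median 5.57) and from 14.7 to 37.8 in SD (median 27.4). In CS, 5 of 6 libraries were below the lowest SD library, and the exception was replicate 5, which at 35.2 CPM sat within the SD range. The log2 fold change of 2.12 ± 0.56 (adjusted p = 0.00849) was 2.64 without that library and 1.44 ± 0.42 after the correction (adjusted p = 0.0212). Tests on the recovered reads put it just outside the threshold, at 1.49 in edgeR (adjusted p = 0.0559) and 1.46 in DESeq2 (adjusted p = 0.0510).

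Jund (chr8:70698949-70700616, plus strand), a gene without introns, encodes the member most often found in resting cells. Jund ran from 3.71 to 31.3 CPM in CS (median 9.81) and from 22.8 to 49.4 in SD (median 32.4). The same CS replicate 5 was the only CS library to reach the SD range. That library was also the highest in CS for Fosl2, Jun and Atf3. The log2 fold change of 1.66 ± 0.37 (adjusted p = 0.00403) fell to 0.84 ± 0.20 after the correction and was still called (adjusted p = 0.00832).

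Atf3 (chr1:191170296-191218039, minus strand) is a stress-responsive bZIP gene and was too low for the main test, with 10 to 83 reads per WT CS or SD library. It ran from 0.19 to 0.47 CPM in CS (median 0.29) and from 0.43 to 0.62 in SD (median 0.52), and 6 of 7 SD libraries were above the highest CS library. In the fit without a filter on low values its log2 fold change was 0.40 ± 0.07 (adjusted p = 0.00342), which understates the 1.84-fold ratio of the means because of the 0.5 CPM added to each value.

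**Figure D2:**
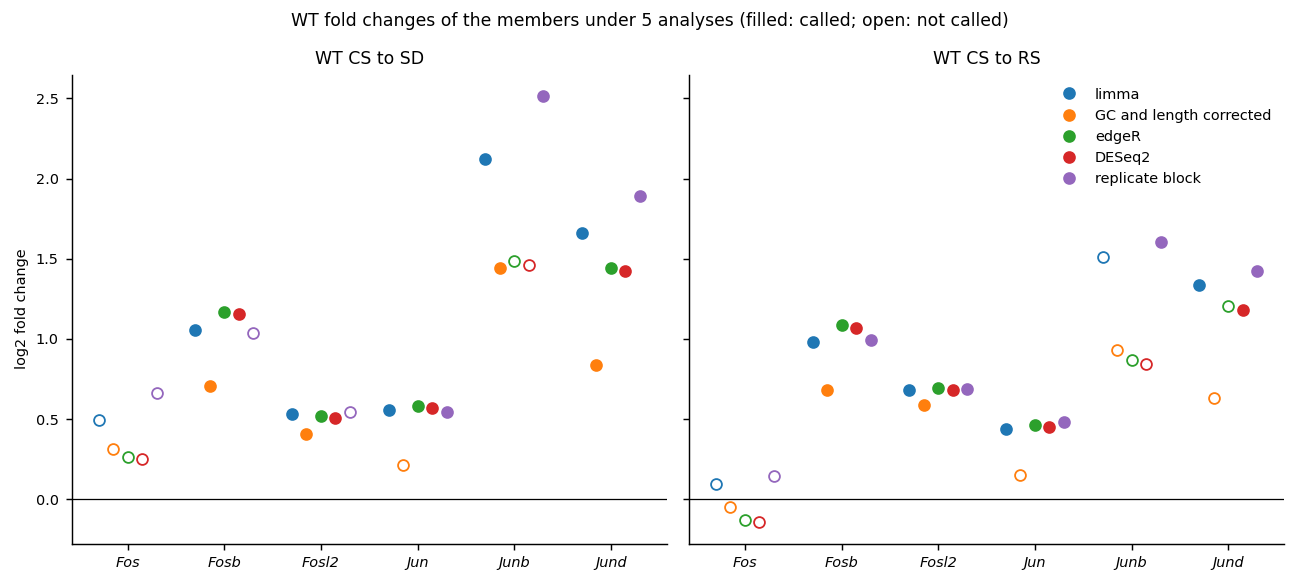
Log2 fold changes of 6 members in WT, SD against CS (left) and RS against CS (right), in 5 analyses of the same libraries; filled points were called and open points were not. With GC and length corrected, Junb in SD falls from 2.12 to 1.44 and Jund from 1.66 to 0.84, and Jun is no longer called.

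**Figure D3:**
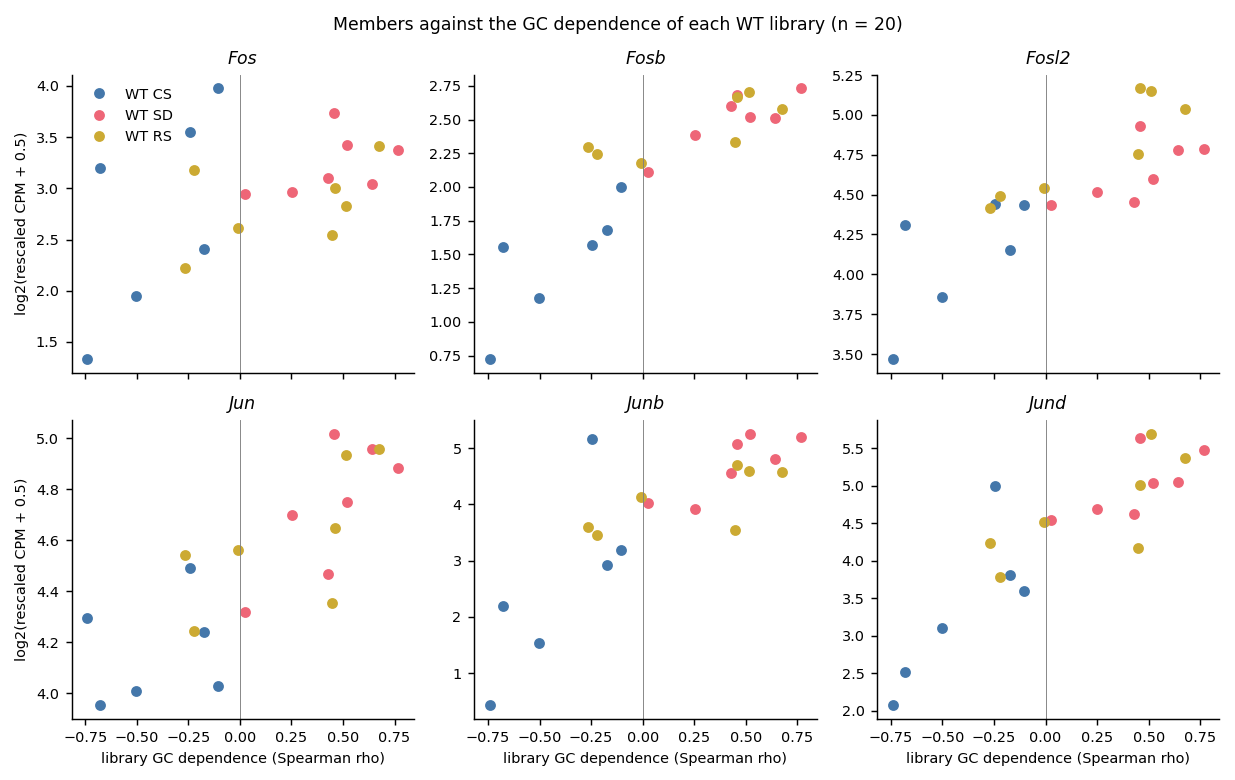
Log2(rescaled CPM + 0.5) of 6 members against each WT library's GC dependence (Spearman's rho over genes between GC content and deviation from the mean), with points colored by group (20 libraries). The CS libraries all lie below 0 on the horizontal axis and the SD libraries all lie above 0.

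Levels were also compared among the members. Per kilobase of exon, the mean order in WT CS was Jund (7.33 CPM per kb), Jun (5.53), Junb (4.22), Fos (3.21), Fosl2 (1.78), Fosb (0.37) and Atf3 (0.14). Neighbors in this order overlapped between libraries except Fosl2 and Fosb. In WT SD the order was Jund (19.8), Junb (11.7), Jun (8.26), Fos (3.84), Fosl2 (2.55), Fosb (0.84) and Atf3 (0.25), with Junb above Jun though the pair overlapped. The place of Jund depends on the gene model, which has 1668 bases and starts 1210 bases from the RefSeq start. A longer counted transcript would give Jund a lower value per kilobase. As a share of the reads on the 6 FOS and JUN genes, Junb had a median of 9.26% in CS and 20.99% in SD, Jund 16.5% and 25.3%, and Fosl2 28.0% and 20.6%. The FOS family together took a median of 40.6% of these reads in CS and 30.5% in SD, with ranges of 28.3% to 55.6% and 28.3% to 35.7% that overlapped. The Junb share also overlapped, at 2.27% to 28.5% and 14.7% to 27.8%. These shares are given without a test and without a correction for GC content.

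After 2 hr of recovery sleep following shorter deprivation, 4 of 6 members were still called higher than in CS, where 9.28% of 12752 genes were called higher, 8.22% lower and 17.5% in either direction. The control libraries are the same as above. Fosb ran from 4.03 to 6.01 CPM in RS (median 4.55), so all 7 RS libraries were above the highest CS library (3.72% of genes tested did not overlap), and its log2 fold change was 0.98 ± 0.18 (adjusted p = 0.0329). Fosl2 had its highest WT level here, from 20.9 to 35.5 CPM (median 26.5), with a log2 fold change of 0.68 ± 0.18 (adjusted p = 0.0351). Jun was at 18.4 to 30.6 CPM (median 23.1, log2 fold change 0.44 ± 0.13, adjusted p = 0.0408). Jund was at 13.2 to 51.4 CPM (median 22.4), the widest range of any member in RS, with a log2 fold change of 1.34 ± 0.42 (adjusted p = 0.0449). Junb was at 10.48 to 25.5 CPM (median 17.0), with a log2 fold change of 1.51 ± 0.56 that was not called (adjusted p = 0.0613).

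Fos in RS ran from 4.18 to 10.1 CPM (median 6.59) and overlapped CS throughout, with a log2 fold change of 0.10 (interval -0.68 to 0.88, adjusted p = 0.844) whose sign turned in edgeR, in DESeq2 and after the GC correction. Atf3 ran from 0.20 to 0.79 CPM in RS, and in the fit without a filter was not called (log2 fold change 0.29, adjusted p = 0.143). After the GC and length correction Fosb (0.68 ± 0.11, adjusted p = 0.0201) and Fosl2 (0.59 ± 0.16, adjusted p = 0.0455) stayed called and the others did not. In that fit 5.17% of genes tested were called in either direction, and 1.74% of genes tested were called higher. The calls in RS sat close to the threshold: the count of members called was 0 without RS replicate 3, 4, 5, 6 or 12 or CS replicate 3, 1 without CS replicate 1 or 2, and 4 or 5 without any other library. The calls over all genes fell with them, from 2232 to 0 without RS replicate 3, 5, 6 or 12 or CS replicate 3, to 3 without RS replicate 4, and to 223 and 98 without CS replicates 1 and 2.

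Between SD and RS themselves no member was called (3 of 12921 genes tested were, 0.0232%, with 0.0155% higher and 0.00774% lower), and 2 of 6 had an unadjusted p under 0.05. Fos was lower in RS by a log2 change of -0.40 (interval -0.76 to -0.03, adjusted p = 0.870) and Junb by -0.61 (interval -1.15 to -0.06, adjusted p = 0.859). Fosb differed by -0.08 (interval -0.32 to 0.16) and Fosl2 by 0.15 (interval -0.12 to 0.43). Neither DESeq2 nor edgeR called a member here.

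**Figure D4:**
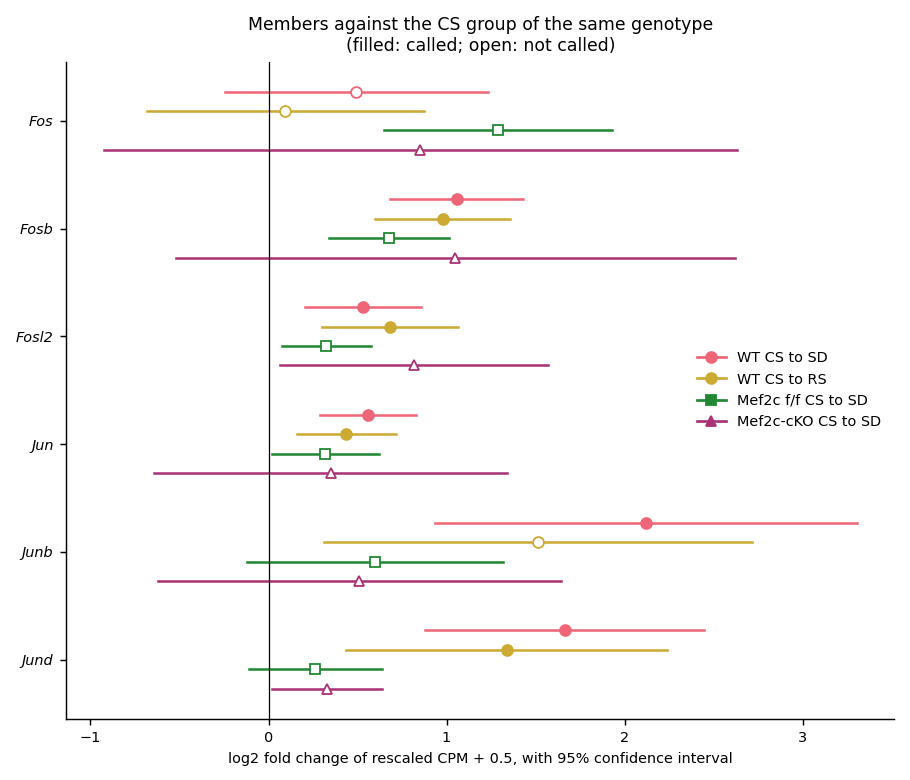
Log2 fold change of each member against the CS group of the same genotype, with 95% confidence intervals; filled symbols were called and open symbols were not. The intervals in Mef2c-cKO are the widest for Fos and Fosb, and the Fos value of 1.29 in Mef2c f/f lies above the WT value of 0.49.

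In Mef2c f/f mice, which keep Mef2c but carry the loxP sites, 6 of 6 members had higher means in SD than in CS, but none was called, where 5 of 12410 genes tested were (0.0403%, with 0.0242% higher and 0.0161% lower). Of the 6, 4 had an unadjusted p under 0.05, and edgeR called none. Without f/f CS replicate 1, 590 genes and still no member were called, and 0 to 3 genes without any other library. In 4 of the 6 (Fos, Fosb, Fosl2 and Jun) the SD and CS libraries did not overlap, as for 17.4% of genes tested. Fos was at 2.40, 6.28, 3.55 and 3.73 CPM in CS and at 14.9, 8.65 and 7.65 in SD. All 3 SD libraries were above all 4 CS libraries, and the log2 fold change of 1.29 (interval 0.65 to 1.93) had an adjusted p of 0.103, against 0.00145 in DESeq2, where it was called at 1.38. Fosb was at 2.42, 2.24, 2.55 and 2.71 CPM in CS and at 5.37, 3.96 and 3.62 in SD (log2 fold change 0.68 ± 0.15, adjusted p = 0.103). DESeq2 called it (0.81, adjusted p = 0.00470), as did limma after the GC correction (0.75, adjusted p = 0.0478). Over all genes tested, DESeq2 called 3.76% (1.53% higher) and the corrected fit 0.927% (0.588% higher).

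Fosl2 was at 17.0, 17.3, 17.6 and 16.1 CPM in f/f CS and at 25.6, 20.6 and 18.5 in SD, with a log2 fold change of 0.33 (interval 0.08 to 0.57, adjusted p = 0.199). Jun was at 15.3, 21.4, 21.3 and 16.0 CPM in CS and at 24.5, 22.8 and 21.6 in SD, a log2 fold change of 0.32 (interval 0.02 to 0.62, adjusted p = 0.266). These separated by narrow margins. Junb (6.53, 15.7, 8.25 and 12.3 CPM in CS and 22.7, 17.3 and 9.56 in SD) and Jund (7.86, 10.6, 11.03 and 11.5 in CS and 11.6, 15.6 and 10.2 in SD), the members with the steepest change in WT, overlapped between the groups, with log2 fold changes of 0.60 and 0.26. Atf3 stayed between 3 and 16 reads per library (0.15 to 0.32 CPM).

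The f/f response was set against the WT response by an interaction term over the 4 groups. WT and f/f libraries differ in their listed CPM sums, as given above, and the part of this in the interaction was not tested. None of the 6 members was called (15.1% of 13106 genes tested were, 9.35% with a higher and 5.78% with a lower value in f/f). Of the 6, 1 had an unadjusted p under 0.05, and neither edgeR nor DESeq2 called one. The largest differences were in Junb (-1.52, interval -3.30 to 0.26, adjusted p = 0.178) and Jund (-1.40, interval -2.55 to -0.25, adjusted p = 0.0749), both smaller in f/f. Without WT CS replicate 5, the library with high Junb and Jund, both passed (Junb -2.04, adjusted p = 0.0334; Jund -1.73, adjusted p = 0.0191), in a fit that called 3143 of 13115 genes, 1479 of them lower, against 1983 and 758 with it. The number of genes called ran from 23 without f/f SD replicate 3 to 3300 without WT CS replicate 6. In the same interaction 5 of 5 red blood cell genes (median -2.62), 2 of 5 meningeal genes and 1 pericyte and smooth muscle gene were called lower. Called higher were 2 oligodendrocyte, 1 excitatory neuron and 1 microglia gene. Red blood cell markers summed to 123 to 182 CPM in f/f CS and 56.3 to 105 in f/f SD. Their part in the AP-1 differences was not tested. Fos differed the other way (0.80, interval -0.36 to 1.96, adjusted p = 0.274). The GC shift between CS and SD also differed between the genotypes: Spearman's rho between log2 fold change and GC content over genes was 0.72 in WT and -0.30 in Mef2c f/f. With GC content and length corrected, the differences were -0.80 for Junb (adjusted p = 0.469) and -0.54 for Jund (adjusted p = 0.286).

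In Mef2c-cKO mice no member was called between CS and SD, where 3 of 12810 genes tested were (0.0234%), and 2 of 6 had an unadjusted p under 0.05. A single library carried most of the means. Fos was at 11.1, 4.48 and 5.92 CPM in CS and at 8.27, 45.0 and 4.97 in SD, the 45.0 being SD replicate 6. Fosb was at 3.62, 1.84 and 4.18 CPM in CS and at 4.04, 22.2 and 3.37 in SD, and Junb at 13.5, 11.9 and 13.6 in CS and at 13.0, 44.9 and 10.9 in SD. The same replicate was the high one for each. The other SD libraries sat among the CS libraries for Fos and Fosb, and for Junb 1 of them was below all 3. The log2 fold changes were 0.85 for Fos (interval -0.93 to 2.63), 1.05 for Fosb (-0.52 to 2.62) and 0.51 for Junb (-0.62 to 1.64), all with an adjusted p of 0.998. Without SD replicate 6 they were -0.05, 0.24 and -0.11.

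Fosl2 was at 26.1, 13.6 and 16.4 CPM in Mef2c-cKO CS and at 31.0, 47.8 and 22.4 in SD (log2 fold change 0.82, interval 0.07 to 1.57), and 0.54 without SD replicate 6. Jun was at 17.0, 30.9 and 50.4 CPM in CS and at 29.9, 60.1 and 30.8 in SD. The 50.4 in CS belonged to replicate 8, the library with the high Gfap. Jund was the most even member (12.5, 16.4 and 12.4 CPM in CS and 18.4, 16.6 and 16.7 in SD) and the only one whose groups did not overlap (9.05% of genes tested), with a log2 fold change of 0.33 (interval 0.02 to 0.64, adjusted p = 0.998). The difference between the Mef2c-cKO and f/f responses, an interaction term, called no member (1 of 12860 genes tested, 0.00778%). It was -0.44 for Fos (interval -2.23 to 1.36) and 0.37 for Fosb (interval -1.11 to 1.85), and -1.34 and -0.44 without SD replicate 6. With intervals this wide, neither an equal response nor a loss of the f/f response of Fos was distinguishable.

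Mef2c-cKO was also set against Mef2c f/f within each sleep state. In CS, 0 of 6 members were called (7.67% of 12681 genes tested were, with 3.17% higher and 4.5% lower), and 1 had an unadjusted p under 0.05. There edgeR called no member, and DESeq2 called Jun and 16.5% of all genes tested (7.26% higher). In SD, 0 of 6 were called (15.1% of 12774 genes tested were, with 9.1% higher and 5.99% lower), and 3 had an unadjusted p under 0.05. There edgeR called no member, and DESeq2 called Fosl2, Jun and Jund and 17.9% of all genes tested (10.5% higher). All 6 members had higher means in Mef2c-cKO in both states, and the median log2 difference was 0.38 in CS and 0.53 in SD. In SD this leaned on SD replicate 6. Without it the log2 differences were -0.60 for Fos, -0.18 for Fosb and -0.37 for Junb. Fosl2, Jun and Jund stayed higher in SD without any 1 library. In CS, Fosl2 ran from -0.17 to 0.28 with 1 library left out. Markers of other cells moved too. In SD, 3 of 5 microglia, 3 of 5 inhibitory neuron, 1 astrocyte and 1 endothelial gene were called higher. Called lower there were 1 inhibitory neuron, 1 excitatory neuron, 1 oligodendrocyte and 1 endothelial gene. In CS, 2 meningeal, 1 inhibitory neuron, 1 astrocyte and 1 oligodendrocyte gene were higher, and 2 red blood cell genes and 1 endothelial gene lower. Microglia markers summed to 134 to 139.5 CPM in f/f SD and 166 to 177 in Mef2c-cKO SD, and to 125 to 150 and 147 to 345 in CS. Their part in the AP-1 values was not tested. Jun stood at 32.8 ± 16.8 CPM in Mef2c-cKO CS (SD, n = 3) against 18.5 ± 3.34 in f/f CS (n = 4), a log2 difference of 0.69 (interval -0.0030 to 1.39, adjusted p = 0.180). It stood at 40.3 ± 17.2 in SD against 22.95 ± 1.46, a log2 difference of 0.72 (interval 0.18 to 1.26, adjusted p = 0.0684). All 3 Mef2c-cKO SD libraries were above all f/f SD libraries for Jun and for Jund (0.48, interval 0.14 to 0.81, adjusted p = 0.0564), as for 40.3% of genes tested. In CS this held for Jund alone of the 6 members (0.41, adjusted p = 0.135), against 26.9% of genes tested. Without SD replicate 6 both were called (Jun 0.40, adjusted p = 0.00667; Jund 0.50, adjusted p = 0.0351), in a fit that called 2447 of 12862 genes, 1572 of them higher, against 1927 and 1162 with it.

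Atf3 showed its highest group means in Mef2c-cKO. It was at 0.53, 0.56 and 3.10 CPM in CS and at 0.70, 2.48 and 0.58 in SD, against 0.15 to 0.28 in f/f CS and 0.19 to 0.32 in f/f SD. Every Mef2c-cKO library was above every f/f library, but the largest values were those of CS replicate 8 (126 reads) and SD replicate 6 (81 reads). The other Mef2c-cKO libraries lay within the WT RS range of 0.20 to 0.79 CPM, though WT libraries differ from Mef2c-cKO libraries in listed CPM sum. Between Mef2c-cKO and f/f, 26.9% of genes in the main test did not overlap in CS and 40.3% in SD. In the fit without a filter the log2 difference was 1.11 (interval 0.17 to 2.05, adjusted p = 0.139) in CS and 1.04 (interval 0.18 to 1.90, adjusted p = 0.103) in SD, and neither was called. Fosl1, the remaining FOS family gene, had 0 to 2 reads in the WT CS libraries and at most 18 reads in any library, and no fold is given for it.

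The wider AP-1 pathway was read in WT SD against CS from lists of named genes. Over all genes tested there, 24.6% were called higher and 20.5% lower. After the GC correction 10.2% were called higher and 20.4% in either direction. These shares stand beside each WT list below. Among 13 other bZIP partners, 7 passed the filter, and 4 were called higher and 1 lower. The small MAF genes Mafg (0.76, adjusted p = 0.00182) and Mafk (0.65) rose, as did Atf4 (0.92), the effector of the integrated stress response. Atf2, a partner of JUN at CRE-like sites, fell by 0.51 on the log2 scale. After the GC correction Mafg and Atf4 were still called higher, and Jdp2, which encodes a repressive JUN partner, was called lower (-0.48). Jdp2 was also lower in Mef2c-cKO than in f/f, at 33.1 ± 1.80 against 52.0 ± 5.62 CPM in CS (log2 difference -0.64, adjusted p = 0.0113) and 31.5 ± 4.63 against 50.8 ± 6.18 in SD (-0.68, adjusted p = 0.0104).

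Of the kinases upstream, 14 of 15 MAP kinase cascade genes were tested, with a median log2 fold change of -0.03. Of these, 4 were called higher and 6 lower (24.6% and 20.5% of all genes tested). The ERK kinases' activators Map2k1 (0.41) and Map2k2 (0.80) rose. The JNK genes Mapk8, Mapk9 and Mapk10 fell, by 0.55, 0.40 and 0.57 on the log2 scale. With GC and length corrected none was called higher, and Mapk10 and Rps6ka3 were still called lower. Of the 12 factors that act at AP-1 promoters, Srf (0.48) and the CREB coactivator Crtc1 (0.49) were called higher and Creb1 was called lower (-0.39), with a median of 0.02. None of these 3 was called after the correction, when the SRF coactivator gene Mkl1 was called lower (-0.44).

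Among 14 genes often described as AP-1 targets, 10 were tested, with a median of 0.31. Of these, 5 were called higher and 1 lower (24.6% and 20.5% of all genes tested). Those higher were the intermediate filament genes Gfap (1.09, adjusted p = 0.00152) and Vim (1.02), the opioid peptide precursor Pdyn (0.85), the cyclin gene Ccnd1 (0.64) and Cdk5 (0.31). The AMPA receptor gene Gria2 was lower (-0.64), but not with the correction (-0.019). Vim, Gfap, Pdyn and Ccnd1 were called higher with the correction too. Ccnd1 was also called in Mef2c f/f (0.65, adjusted p = 0.0441), at 23.5 ± 0.61 CPM in CS and 37.25 ± 2.14 in SD. In Mef2c-cKO SD against f/f SD, 4 targets were called higher (9.1% of all genes tested were). Among them were Gfap (1.91), Pdyn (1.01) and Vim (0.82), beside the high Gfap of SD replicate 6.

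Other immediate early genes were read beside Fos. Of 14, 13 were tested in WT, 8 were called higher and 1 lower, with a median of 0.35. Egr4 (1.46), Arc (1.18, the cytoskeletal gene of active synapses), Nr4a1 (0.78), Npas4 (0.68), Dusp1 (0.62), Btg2 (0.60), Egr3 (0.35) and Klf4 (0.31) were higher and Nr4a2 (-0.68) was lower. Egr1 stood at 60.7 ± 13.5 CPM in CS and 60.9 ± 14.3 in SD, a log2 fold change of 0.00. After the GC correction Arc, Btg2 and Egr4 were called higher and Nr4a2 lower. Arc had 18.3 to 54.5 CPM in WT CS and 58.8 to 94.8 in SD without overlap, and 29.4 to 64.75 in RS.

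**Figure D5:**
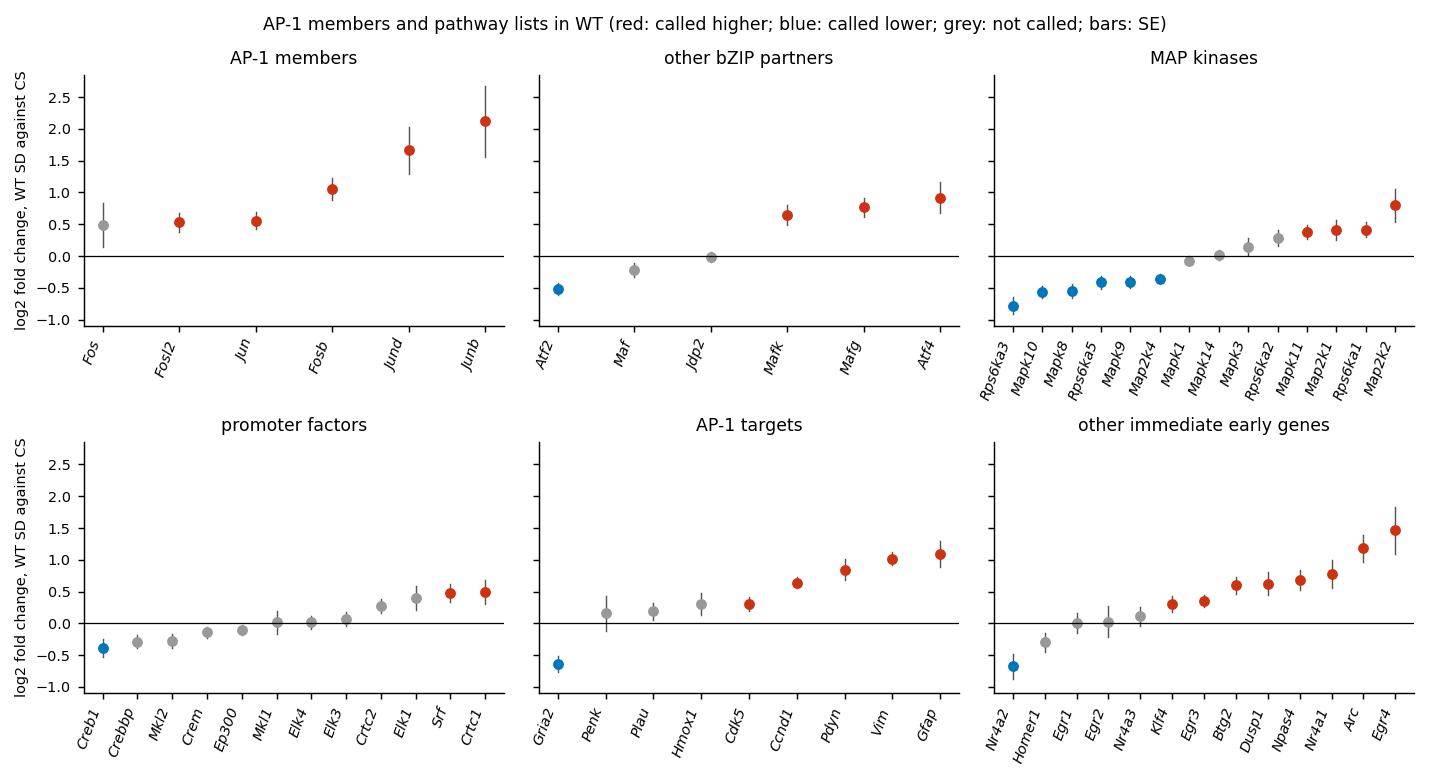
Log2 fold change in WT SD against CS (points, with bars of 1 SE) of AP-1 members and of the genes reported here from 5 lists, each in order of size; red was called higher, blue lower and grey was not called. Junb and Jund stand highest among the genes drawn, Egr4 leads the other immediate early genes, and the MAP kinase list splits into 4 higher and 6 lower.

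Cell type markers moved as well in WT SD against CS. All 5 red blood cell genes (Hba-a1 2.12) and 3 of 5 meningeal fibroblast genes (Col1a1 2.34) were called higher, as were 2 of 5 inhibitory neuron, 2 pericyte and smooth muscle, 1 astrocyte, 1 microglia and 1 endothelial gene. Called lower were 2 endothelial genes and 1 each of the excitatory neuron, oligodendrocyte, microglia (P2ry12 -1.01) and pericyte lists. With GC content and length corrected, 5 red blood cell, 4 meningeal, 2 inhibitory neuron, 2 pericyte and smooth muscle and 1 astrocyte gene were called higher, and 2 excitatory neuron and 2 microglia genes lower, with no endothelial or oligodendrocyte gene called. In bulk tissue, more cells of a type and more RNA per cell cannot be told apart, and the part of these shifts in the AP-1 values was not tested.

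The genes whose levels followed each member most closely over all 33 libraries were sought among 11566 genes with CPM of 1 or more in every library. The libraries share their groups and their GC shift, so these values are descriptions. Nearest to Fos were Trib2 (Pearson's r = 0.87), the ERK phosphatase gene Dusp6 (0.87) and Arc (0.83). Nearest to Fosb were Dusp4 (0.93), also a MAP kinase phosphatase gene, Rara (0.87) and Nptx2 (0.87), and to Fosl2 Pcdh8 (0.84), Dusp4 (0.83) and Nfil3 (0.82). Within groups, on deviations from each group's mean, Dusp6 still followed Fos at 0.90 and Dusp4 followed Fosb at 0.88. Nearest to Jun were Acot1 (0.88), Arpc5 (0.87) and Mrpl52 (0.86), and to Junb Tmem198 (0.92), Irf2bpl (0.91) and St6galnac4 (0.91). Nearest to Jund were Gadd45gip1 (0.96), Arl10 (0.94) and Fscn1 (0.94). After the GC correction Arl10 followed Jund at only 0.38 and Gadd45gip1 at 0.91. Nearest to Atf3 were Mcm6 (0.89), Prss23 (0.87) and Cyth4 (0.86).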

How the data were processed

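Frontal cortex RNA was made into stranded mRNA libraries. Per the study's methods, the authors trimmed reads, aligned them to mm10 with STAR, counted genes with HTSeq and deposited CPM from edgeR; the annotation release is not given in the sources used here. Of the deposited CPM values, 100% of 711645 were whole multiples of 1 read (within 0.01 read), so reads were recovered. CPM was rescaled by median-of-ratios factors over 11570 genes, and log2(CPM + 0.5) was fitted with limma 3.58.1 (trend, R 4.3.3) on the compared groups, on genes whose CPM reached 1 in each library of either group. Calls needed a p no higher than 0.05 after Benjamini-Hochberg adjustment over all genes tested, with a log2 fold change of 0.3 or more in size (interactions: adjusted p alone). Fold changes are on the log2(CPM + 0.5) scale. The count tests on recovered reads, edgeR 4.0.16 and DESeq2 1.42.0, called 5701 and 6048 genes in WT SD against CS. Other alternatives changed the pseudocount, scaling, filter, GC and length correction (spline per library), samples fitted, replicate block or 1 library at a time. Gene models and GC came from GENCODE M21 (GRCm38; 19496 of 21565 symbols matched); promoters from RefSeq for 7 of 7 members. Members, lists and named genes (members, list genes, Mef2c, and the 3 genes with the highest Pearson's r per member) were chosen with earlier results of these data known. The fits were also run on simulated counts that held no GC shift between groups and no library set apart. That run does not bear on those features of the data. Nothing in the labels says whether libraries are separate animals' tissue processed apart, so p-values measure the spread between libraries. The total reads per library span 18935045 to 249046089, and 72 replicate pairs all differed beyond counting noise. Some list genes are counted but not reported here by name.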

Additional observations from a re-analysis of the deposited data

Results flagged for a closer look

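Of 28 sets examined (7 members in the 4 groups of 4 to 7 libraries), 2 held a library far from the rest, where chance alone flags about 1 set in 20. Both came from WT CS replicate 5, which held Junb at 35.2 CPM against 8.64 in the next highest CS library, and Jund at 31.3 CPM against 13.5. It was also the highest CS library for Fosl2 (21.2 CPM), Jun (21.96 CPM) and Atf3 (0.47 CPM), without standing as far from the rest.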

How the results depend on the processing

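The 5 members called in WT SD against CS stayed 5 without any 1 library. In edgeR and in DESeq2 the count was 4, as Junb no longer passed. With the GC and length correction it was 4, as Jun no longer passed, and with no filter on low values it was 6. With CPM of at least 5 required in every library only 2 members were tested and both called, and with a replicate block the count was 3 (Fosb at adjusted p = 0.0511 and Fosl2 at 0.0840 no longer passed). Replicate numbers are shared between groups, but same-numbered libraries did not all deviate together (r from -0.33 to 0.55 in WT SD against CS, 0.07 to 0.67 in RS against CS), and 3 of 10 and 2 of 12 libraries correlated best with their own number, so the block is not read as pairing; it moved the genes called from 5825 to 287 in SD against CS and from 2232 to 4279 in RS against CS, where it called 5 members. In RS against CS the count of 4 members became 1 with no filter on low values, 2 with CPM of at least 5 in every library and 2 with the GC and length correction, and ran from 0 to 5 when 1 library was left out. In Mef2c f/f, 0 became 1 with the GC correction and 2 in DESeq2. For Mef2c-cKO against f/f in CS, 0 became 1 in DESeq2 and ran from 0 to 1 without 1 library. In SD it became 2 with CPM as deposited and 3 in DESeq2 and ran from 0 to 2 without 1 library. For the f/f minus WT response it became 1 with CPM as deposited and ran from 0 to 2. With CPM as deposited, 6106 genes were higher and 801 lower in WT SD against CS (3182 and 2643 after rescaling) and the median over all genes moved from 0.04 to 0.30 on the log2 scale; Fosb, Fosl2, Jun, Junb and Jund were called in both. With the GC correction 2542 genes were called there and 636 in RS against CS, where DESeq2 called 3420 and a single fit over all 7 groups 4709. Genes called rose in DESeq2 from 3 to 54 in RS against SD, from 5 to 466 in Mef2c f/f (115 with the GC correction), from 3 to 25 in Mef2c-cKO, from 1 to 59 in the Mef2c-cKO minus f/f response, and from 973 to 2095 in Mef2c-cKO against f/f in CS. The f/f minus WT response moved from 1983 genes to 3426 as deposited, 252 with the GC correction and 2 with the block. The single fit gave 690 in place of 1927 in Mef2c-cKO against f/f in SD. Some values changed sign. Fos in RS against CS was -0.050 with the GC correction, -0.13 in edgeR and -0.14 in DESeq2, and ran from -0.19 to 0.34 without 1 library. In Mef2c-cKO SD against CS, Fos was -0.13 and Junb -0.080 with the replicate block and the same without both SD replicate 6 and CS replicate 8 (a setting chosen after seeing the data). Leaving out 1 library gave -0.05 to 1.47 for Fos, -0.048 to 0.72 for Jun and -0.11 to 0.88 for Junb. Against f/f it gave -0.17 to 0.28 for Fosl2 in CS, and in SD -0.60 to 0.93 for Fos, -0.18 to 1.09 for Fosb and -0.37 to 0.62 for Junb. In the Mef2c-cKO minus f/f response, Fos was 0.032 in edgeR and 0.056 in DESeq2, Jun -0.018 with the GC correction, -0.017 in edgeR and -0.0082 in DESeq2, Junb 0.17 in edgeR and 0.20 in DESeq2, Jund -0.033 with the GC correction and -0.032 with the block, and Fosb -0.28 with the block; without both libraries Fosb was -0.24 and Fos -1.42; leaving out 1 library gave -1.34 to 0.19 for Fos, -0.44 to 0.84 for Fosb, -0.37 to 0.40 for Jun, -0.71 to 0.28 for Junb and -0.064 to 0.23 for Jund. In the f/f minus WT response the GC correction gave 0.045 for Fosb, 0.0037 for Fosl2 and 0.17 for Jun. The causes were not tested. No block could be fitted between Mef2c-cKO and f/f, which share no replicate numbers. Depth limits Atf3 most, at 3 to 126 reads in the Mef2c-cKO and f/f libraries.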
